A study of Mus musculus with 3 samples.

Results

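The fibroblast growth factor (FGF) ligands *Fgf7*, *Fgf10*, *Fgf2*, *Fgf21* and *Fgf23*, the receptors *Fgfr1*, *Fgfr2* and *Fgfr3* and the coreceptors *Klb* and *Kl* were followed in nonhematopoietic (CD45-) cells of the aged mouse thymus. The members were chosen by gene symbol, and each of the 10 symbols matched 1 of 32285 genes in the single-cell count tables. There were 3 libraries from untreated 20-month-old C57BL/6 mice, each the sole library of its group (n = 1): Foxn1 lineage trace female (Foxn1Lin female), Foxn1 lineage trace male (Foxn1Lin male) and wild-type male (WT male). *Foxn1* encodes a transcription factor needed to build the thymic epithelium, and in the lineage trace its promoter drives a Cre that switches on a tdTomato reporter kept by the cell and its progeny. Thymi of several mice were pooled for a library. The protocol in the labels names female mice for all libraries, and the cell type field of WT male names CD45-PECAM1+ cells while its title names CD45- cells. Genotype, sex and library cannot be told apart here, so libraries were not compared by a test. Values given as a series of 3 stand in the order Foxn1Lin female, Foxn1Lin male and WT male.

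FGF ligands are secreted proteins that signal through receptor tyrosine kinases. *Fgf7* (keratinocyte growth factor) and *Fgf10* are classically made by mesenchyme and act on the epithelial splice form of *Fgfr2*, and *Fgf7* is a known growth factor of thymic epithelial cells (TECs). *Fgf21* and *Fgf23* are endocrine FGFs that need β-Klotho (*Klb*) or α-Klotho (*Kl*) beside an FGF receptor, and *Fgf2* is a broadly acting ligand bound by heparan sulfate. The unique molecular identifier (UMI) counts are per gene and do not separate the splice forms of *Fgfr2*.

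Classes were set by UMI gates: TECs by *Epcam* (at least 2 UMIs), endothelial cells (ECs) by *Pecam1* (at least 2), fibroblasts (FBs) by *Pdgfra* (at least 2) and mural cells by *Rgs5* and *Acta2* together (at least 5). Barcodes in more than 1 class, 529, 173 and 430, were dropped. TECs numbered 475, 427 and 871, ECs 1903, 818 and 859, FBs 1875, 864 and 1713, and mural cells 433, 449 and 355. Called barcodes held a median of 4675, 7431 and 7947 UMIs. All listed markers of a class, 8 of 8 for TECs and FBs, 9 of 9 for ECs and 7 of 7 for mural cells, were at 10 CPM or more in that class in every library. Called barcodes shared between libraries numbered 8, 14 and 3 for the 3 pairs. A level is the summed UMIs of a gene over the summed UMIs of all genes in the class, given as CPM. Its 95% Poisson interval covers counting error only.

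The stretches of 250 bases before the start sites of 4 ligands with different source classes are shown first: *Fgf7* and *Fgf10*, highest in FBs, *Fgf21*, highest in TECs, and *Fgf23*, highest in ECs. They lie at chr2:126034408-126034657 (plus strand), chr13:118714449-118714698 (plus strand), chr7:45615491-45615740 (minus strand) and chr6:127072652-127072901 (plus strand) of GRCm38.p6, from RefSeq, and run 5′ to 3′. Capitals mark the letters searched on either strand, which were TATAAA and also GGGCGG and also CCAAT.
Fgf7: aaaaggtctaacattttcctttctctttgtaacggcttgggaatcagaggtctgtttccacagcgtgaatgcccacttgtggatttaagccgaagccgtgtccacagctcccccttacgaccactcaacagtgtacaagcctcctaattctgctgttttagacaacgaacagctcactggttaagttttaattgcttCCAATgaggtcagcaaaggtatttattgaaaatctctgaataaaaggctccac
Fgf10: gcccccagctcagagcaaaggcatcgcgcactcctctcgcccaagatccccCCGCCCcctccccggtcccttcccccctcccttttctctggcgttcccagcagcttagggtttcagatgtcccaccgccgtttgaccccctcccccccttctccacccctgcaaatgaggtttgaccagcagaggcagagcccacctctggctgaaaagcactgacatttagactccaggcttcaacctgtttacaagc
Fgf21: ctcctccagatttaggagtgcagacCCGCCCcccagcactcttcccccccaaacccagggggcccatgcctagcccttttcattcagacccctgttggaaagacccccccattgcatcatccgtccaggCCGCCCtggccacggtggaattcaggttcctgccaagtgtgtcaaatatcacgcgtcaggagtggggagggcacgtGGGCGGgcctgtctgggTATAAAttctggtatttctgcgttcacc
Fgf23: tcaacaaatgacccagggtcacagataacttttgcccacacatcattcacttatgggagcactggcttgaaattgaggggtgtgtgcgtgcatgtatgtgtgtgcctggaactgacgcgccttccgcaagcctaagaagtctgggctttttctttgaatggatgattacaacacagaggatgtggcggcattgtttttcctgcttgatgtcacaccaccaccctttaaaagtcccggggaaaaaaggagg
TATAAA was found before *Fgf21* alone of the 4. GGGCGG was found 3 times before *Fgf21* and 1 time before *Fgf10*, and CCAAT was found 1 time before *Fgf7*. The stretch before *Fgf23* held none of these letters. Over 32851 RefSeq start sites, 12.4% of such stretches held TATAAA, 32.7% held GGGCGG and 33.8% held CCAAT.

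*Fgf7* and *Fgf10* were highest in FBs in every library. *Fgf7* in FBs was at 45.9, 37.2 and 35.0 CPM. In TECs it was at 6.33, 0.928 and 1.37 CPM, in ECs at 2.17, 0.394 and 0.534 CPM, and in mural cells at 6.87, 1.46 and 2.45 CPM. The FB levels did not overlap those of any other class. *Fgf7* was higher in FBs than in TECs by 4.49 ± 0.42 on the log2 scale (SE, 3 libraries; adjusted P = 3.3e-05), than in ECs by 5.48 ± 0.47 (adjusted P = 3.5e-05) and than in mural cells by 3.76 ± 0.46 (adjusted P = 0.00043). After each cell was thinned to 2000 UMIs, 6.89%, 6.04% and 6.27% of FBs had an *Fgf7* UMI (20.6%, 20.7% and 16.8% unthinned), against 0.560%, 0% and 0% of ECs (0.946%, 0.367% and 0.349% unthinned), whose median depth was 3892, 7380 and 7029 UMIs beside 7445, 9387.5 and 8233 in FBs.

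*Fgf10* in FBs was at 147, 124 and 205 CPM. In the other classes it lay between 0.394 and 12.2 CPM, the latter in mural cells of WT male. *Fgf10* was higher in FBs than in TECs by 6.16 ± 0.73 on the log2 scale (adjusted P = 0.00013), than in ECs by 6.60 ± 0.76 (adjusted P = 0.00016) and than in mural cells by 4.83 ± 0.73 (adjusted P = 0.0013). FBs held 96.5%, 97.4% and 98.2% of its UMIs in the 4 classes. Empty droplets held *Fgf10* at 19.3, 20.8 and 32.3 CPM, above the levels outside FBs in every library. Some of the UMIs outside FBs lay in single cells, with 16 of 36 in 1 TEC of Foxn1Lin female, 8 of 19 in 1 TEC of Foxn1Lin male and 15 of 30 in 1 mural cell of WT male.

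*Fgf2* was highest in FBs too, at 78.1, 31.2 and 32.0 CPM, with 8.34, 7.65 and 11.8 CPM in mural cells, 3.24, 0.928 and 2.41 CPM in TECs and 7.44, 0.526 and 0.534 CPM in ECs. The difference from TECs was 4.65 ± 0.60 on the log2 scale (adjusted P = 0.0002) and that from ECs 4.23 ± 0.59 (adjusted P = 0.00045). FBs exceeded mural cells by 2.17 ± 0.57 (adjusted P = 0.019), a call lost without Foxn1Lin male (2.27, adjusted P = 0.11), without WT male (2.66, adjusted P = 0.052) and with no library block (2.36, adjusted P = 0.060). Mural cells exceeded TECs by 2.48 ± 0.66 (adjusted P = 0.012), also lost without Foxn1Lin male (2.21, adjusted P = 0.094) or WT male (2.45, adjusted P = 0.060).

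**Figure D1:**
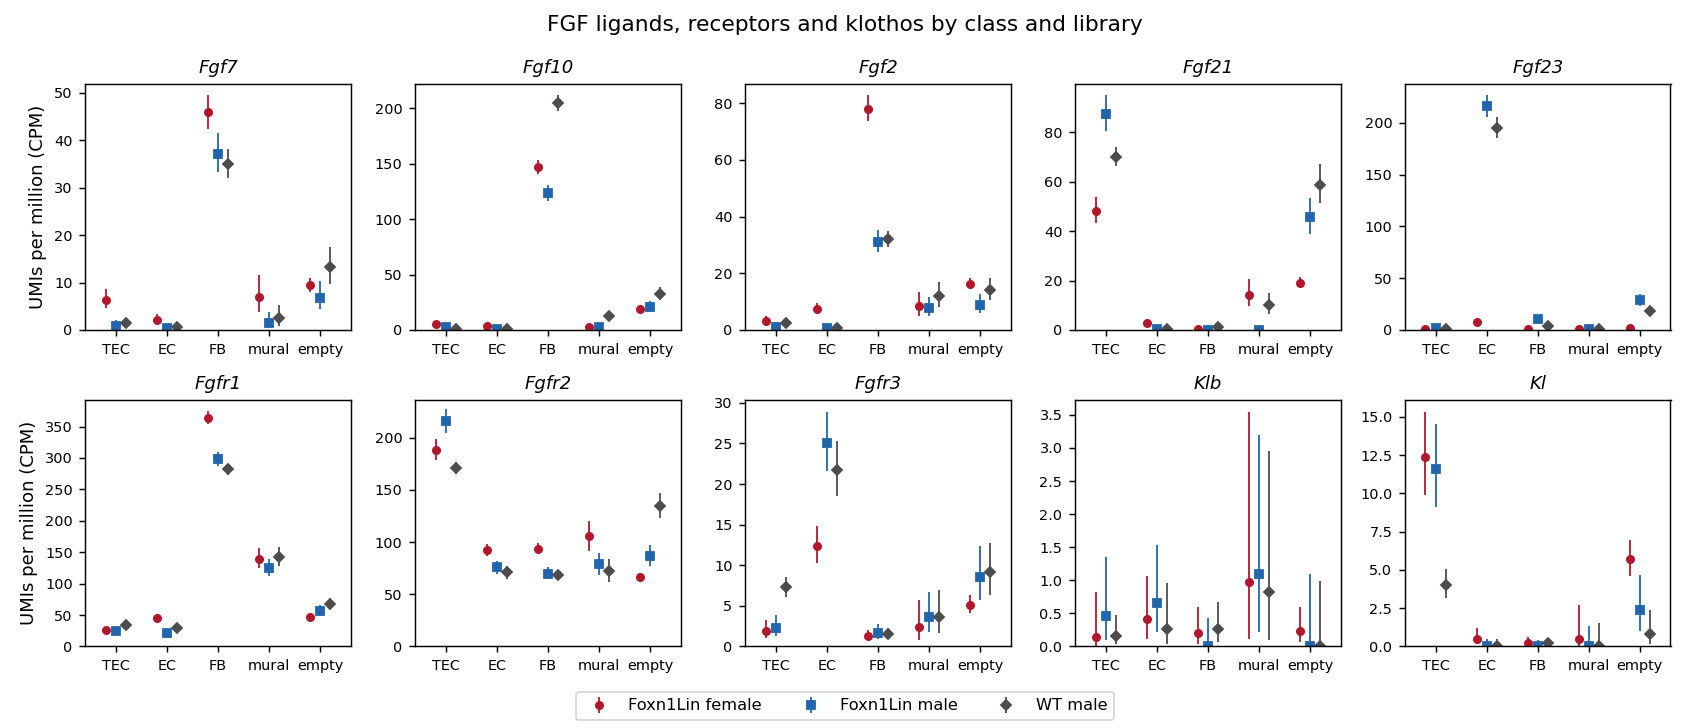
Levels of the 10 genes (CPM, linear axes from 0) in 4 classes and in empty droplets, 1 point per library with its 95% Poisson interval. *Fgf7*, *Fgf10*, *Fgf2* and *Fgfr1* peak in FBs, *Fgf21* and *Fgfr2* in TECs, *Fgf23* and *Fgfr3* in ECs, and *Klb* stays at or below 1.09 CPM.

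FBs were divided by gates for *Pi16* and *Dpp4* (at least 2 UMIs together), which mark capsular FBs, and for *Ptn* and *Postn* (at least 3), which mark medullary FBs. The first gate held 737, 66 and 147 cells and the second 451, 666 and 1261. *Fgf2* was at 130.1, 159.6 and 143 CPM in the *Pi16*/*Dpp4* gate and at 18.3, 16.8 and 18.4 CPM in the *Ptn*/*Postn* gate. The gates did not overlap, and they differed by 3.01 ± 0.16 on the log2 scale (adjusted P = 3.6e-07). Of the 5 members tested, 4 differed between the gates, against 23.5% of all genes tested. *Fgf7* was at 42.6, 60.7 and 57.7 CPM against 28.0, 28.6 and 27.6 CPM (log2 difference 0.90 ± 0.17, adjusted P = 0.0021), a call lost after thinning (0.74, adjusted P = 0.070). *Fgfr1* was at 470.2, 525 and 396 CPM against 234, 271 and 268 CPM (0.84 ± 0.16, adjusted P = 0.0024).

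*Fgfr2* ran the other way, at 73.3, 41.0 and 46.3 CPM against 102, 76.2 and 67.5 CPM (-0.60 ± 0.15, adjusted P = 0.014), and this call was lost without Foxn1Lin male (-0.49, adjusted P = 0.070), with DESeq2 (-0.61, adjusted P = 0.055), with no library block (-0.56, adjusted P = 0.26) and after thinning (-0.41, adjusted P = 0.26). *Fgf10* did not pass the test (0.58 ± 0.28, adjusted P = 0.18), but was called without WT male (1.14, adjusted P = 5.1e-05) and with no low-count filter (0.54, adjusted P = 0.0497). It was at 169, 230.2 and 137 CPM in the *Pi16*/*Dpp4* gate and at 83.5, 95.5 and 199.7 CPM in the *Ptn*/*Postn* gate, higher in the first gate in both Foxn1Lin libraries and lower in WT male.

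**Figure D2:**
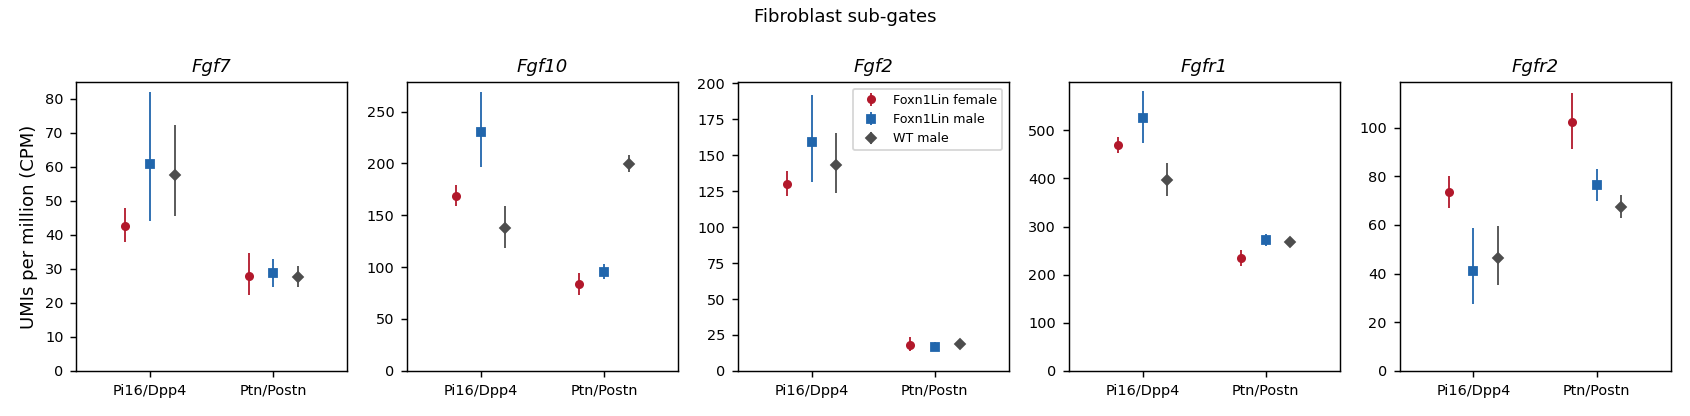
Levels (CPM, linear axes from 0) of 5 members in the 2 FB gates, 1 point per library with its 95% Poisson interval. *Fgf2* is between 16.8 and 18.4 CPM in the *Ptn*/*Postn* gate and between 130.1 and 159.6 CPM in the *Pi16*/*Dpp4* gate, while *Fgf10* changes order in WT male.

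*Fgf21*, an endocrine FGF known mainly from liver, was highest in TECs, at 48.2, 87.4 and 70.0 CPM. ECs held 2.79, 0.394 and 0.267 CPM and FBs 0.478, 0.116 and 1.11 CPM. TECs exceeded FBs (log2 FB minus TEC -6.63 ± 0.96, adjusted P = 0.00039), ECs (-5.65 ± 0.93, adjusted P = 0.00075) and mural cells (-3.07 ± 0.85, adjusted P = 0.014). The mural call was lost without Foxn1Lin male (-2.001, adjusted P = 0.071) or WT male (-3.63, adjusted P = 0.069). Mural cells held 29, 0 and 25 *Fgf21* UMIs, and empty droplets held 19.2, 45.7 and 58.7 CPM, above the 14.2, 0 and 10.2 CPM of mural cells. In Foxn1Lin female, 27 of the 29 were in a single cell, which also had 23 *Aire* UMIs. The 8 TEC markers summed to 448, 116 and 339 CPM in mural cells, and the part of TEC transcripts in this level was not tested. FBs were below mural cells (-3.56 ± 1.07, adjusted P = 0.033), but not with the highest cell of each sum left out (-2.17, adjusted P = 0.24), without Foxn1Lin female (-2.78, adjusted P = 0.11), without WT male (-4.09, adjusted P = 0.16) or under stricter gates (-3.39, adjusted P = 0.054).

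Most *Fgf21* in TECs was in cells with at least 2 UMIs of *Aire*, the regulator that lets medullary TECs transcribe genes of other tissues. These were 121, 70 and 164 cells, or 25.5%, 16.4% and 18.8% of TECs, and they held 79.2%, 87.6% and 93.5% of the *Fgf21* UMIs of TECs. The level was 142, 335 and 309.8 CPM in the *Aire* gate and 13.7, 14.05 and 5.75 CPM in the other TECs, the latter below the empty droplets of each library. An *Fgf21* UMI was found in 47.1%, 67.1% and 60.4% of the *Aire* gate cells and in 6.50%, 5.32% and 6.08% of the other TECs, at median depths of 13425, 21393 and 21601 UMIs against 9675, 11695 and 14462. The gates differ in depth, and these shares are unthinned. No test was made on this gate.

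*Aire* was also among the 5 genes whose profile over the 12 sums of class and library was most like that of *Fgf21* (Pearson r = 0.98), beside *Epha6*, *Mia*, *Utf1* and *Csn2*. The sums share libraries, so r is a description only. Between the *Prss16*/*Psmb11* gate of cortical TECs and the *Ccl21a* gate of medullary TECs, edgeR called 0 of the 3 members tested, against 10.7% of all genes tested, and 2 had an unadjusted P below 0.05. *Fgf21* was at 1.08, 5.81 and 29.6 CPM in the first gate and 144, 73.8 and 61.9 CPM in the second (adjusted P = 0.073). With all cells counted, the first gate was below the empty droplets in every library, and the second above them. In the second gate, 1 cell of Foxn1Lin female held 38 of the 103 *Fgf21* UMIs. That gate was not set against empty droplets without its highest cells. In the first gate a single cell held 82 of the 118 *Fgf21* UMIs of WT male and another all 5 of Foxn1Lin male. With the highest cell of each sum left out, the WT male level in the first gate was 9.02 CPM and *Fgf21* was called. DESeq2 called 1 member, *Fgf21*. *Fgf21* passed the low-count filter through the second gate alone. Its calls between these gates are thus no independent support, and its fitted folds are not given.

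*Fgf23*, a phosphate-regulating hormone known from bone, was highest in ECs, at 8.06, 216 and 195 CPM. TECs held 0.736, 1.39 and 0.765 CPM. ECs exceeded TECs by 7.42 ± 0.69 on the log2 scale (adjusted P = 3.1e-05), and FBs were below ECs (-4.74 ± 0.55, adjusted P = 0.00017). The EC level was 26.8 times higher in Foxn1Lin male than in Foxn1Lin female (95% interval 21.3 to 34.1, counting error only).

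Within ECs, *Fgf23* followed the venous gate (*Selp*, *Ackr1* and *Vwf*, at least 2 UMIs together). Cells in this gate alone were at 57.1, 609 and 617 CPM. Cells that were also in the capillary gate (*Cd36* and *Gpihbp1*, at least 3 UMIs) were at 56.1, 350.1 and 322 CPM. Cells in the capillary gate alone were at 0.401, 0.276 and 0.291 CPM, from 3, 1 and 1 UMIs. The first of these groups held 28.2%, 43.6% and 36.9% of the *Fgf23* UMIs of ECs and the second 67.9%, 56.3% and 62.5%. *Fgf23* passed the low-count filter through the venous gate alone, so its call is no independent support and its fitted fold is not given. The ratio within a library was 142 (95% interval 42.7 to 742) in Foxn1Lin female, and its lower bound was 395 in Foxn1Lin male and 378 in WT male.

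After thinning, 0%, 37.5% and 30.2% of venous gate cells had an *Fgf23* UMI (12.7%, 51.6% and 40.6% unthinned), against 0.148%, 0% and 0% of capillary gate cells. Median depth was 4969, 8377.5 and 8150 UMIs in the venous gate and 3961, 6180.5 and 5686.5 in the capillary gate. The venous gate alone held 55, 126 and 101 cells, 2.89%, 15.4% and 11.8% of ECs. The venous level in Foxn1Lin female was 0.0937 of that in Foxn1Lin male (95% interval 0.0583 to 0.143), and Foxn1Lin male and WT male differed by a ratio of 0.988 (0.882 to 1.11). In this gate *Selp* was at 3500, 4935 and 5396 CPM, *Vcam1* at 882, 1444 and 1500 CPM and *Ccl21a* at 4406, 1.70 and 46.8 CPM. Their part in the lower *Fgf23* of Foxn1Lin female was not tested.

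Of the 4 members tested between the venous and capillary gates, 2 were called, against 22.9% of all genes tested. The other was *Fgfr2*, at 127, 105 and 68.6 CPM against 85.2, 64.9 and 68.8 CPM (0.64 ± 0.18, adjusted P = 0.024), a call lost without Foxn1Lin male (0.51, adjusted P = 0.28), with DESeq2 (0.62, adjusted P = 0.090), with no library block (0.63, adjusted P = 0.17), with no low-count filter (0.54, adjusted P = 0.051), under stricter gates (0.52, adjusted P = 0.052) and with barcodes in both gates counted as venous (0.31, adjusted P = 0.10). *Fgfr1* and *Fgfr3* did not pass the test.

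**Figure D3:**
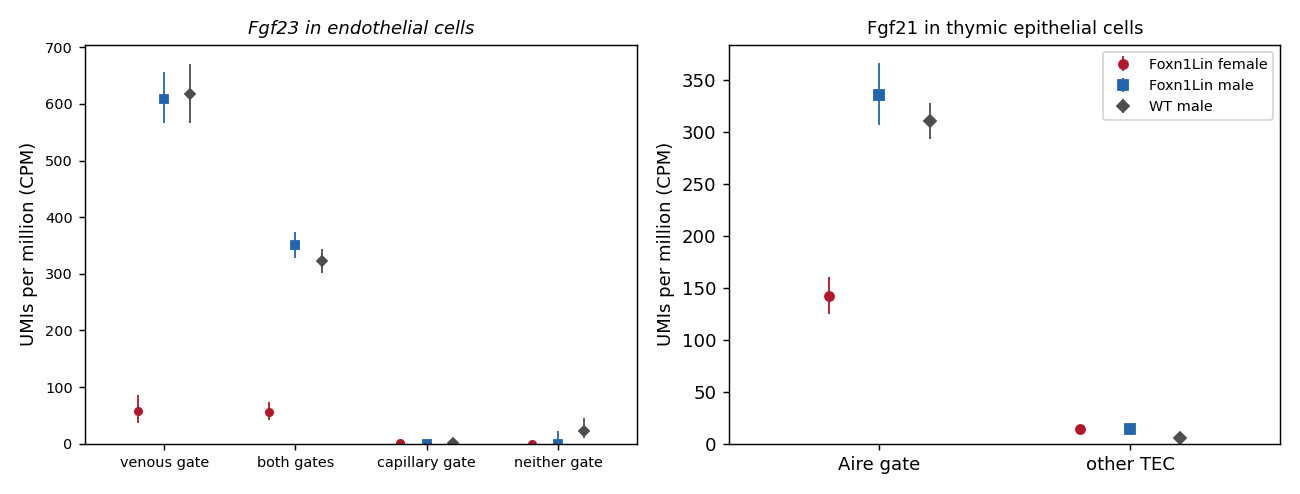
Left, *Fgf23* in 4 groups of ECs by gate; right, *Fgf21* in TECs inside and outside the *Aire* gate (CPM, linear axes from 0, 1 point per library with its 95% Poisson interval). *Fgf23* reaches 609 and 617 CPM in the venous gate of the male libraries and 57.1 CPM in Foxn1Lin female, and *Fgf21* lies between 142 and 335 CPM in the *Aire* gate.

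*Fgf23* was also called higher in FBs than in TECs (2.68 ± 0.70, adjusted P = 0.0097), from 11, 90 and 56 UMIs in FBs. A single FB held 54 of the 90 in Foxn1Lin male, and another 36 of the 56 in WT male. Neither cell had a UMI of *Pecam1*, *Selp*, *Ackr1* or *Vwf*. Empty droplets held *Fgf23* at 1.68, 28.5 and 18.0 CPM, above the FB levels. With those cells left out the FB level fell from 10.4 to 4.18 CPM and from 3.67 to 1.31 CPM. With the highest cell of each sum left out the call held (2.36, adjusted P = 0.026). It was lost under stricter gates (1.52, adjusted P = 0.20), without Foxn1Lin male (2.20, adjusted P = 0.17), without WT male (2.46, adjusted P = 0.084), with no library block (2.69, adjusted P = 0.088) and after thinning (1.86, adjusted P = 0.20).

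Among the receptors, *Fgfr1*, a main receptor of mesenchyme, was highest in FBs, at 364, 298 and 282 CPM, and next in mural cells, at 139.9, 125 and 142 CPM. ECs held 45.2, 20.8 and 30.2 CPM and TECs 26.7, 24.3 and 34.8 CPM. Empty droplets held *Fgfr1* at 47.0, 57.0 and 67.9 CPM, above the EC and TEC levels in every library. The order FBs, mural cells, then ECs and TECs held in every library, and the order of ECs and TECs changed between libraries. FBs exceeded TECs by 3.78 ± 0.23 on the log2 scale (adjusted P = 5.1e-06), ECs by 3.30 ± 0.22 (adjusted P = 1.4e-05) and mural cells by 1.22 ± 0.21 (adjusted P = 0.0025). Mural cells exceeded TECs by 2.57 ± 0.22 (adjusted P = 2.9e-05), and ECs and TECs did not pass the test (0.49 ± 0.21, adjusted P = 0.075). After thinning, 44.3%, 39.4% and 39.4% of FBs had an *Fgfr1* UMI.

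*Fgfr2*, the receptor of *Fgf7* and *Fgf10*, was highest in TECs, at 188, 216 and 171 CPM. ECs held 92.2, 75.8 and 70.9 CPM, FBs 93.6, 69.9 and 68.4 CPM, and mural cells 106, 78.7 and 72.2 CPM. The TEC levels did not overlap those of the other classes. TECs exceeded FBs (FB minus TEC -0.997 ± 0.130, adjusted P = 0.00021), ECs (-0.91 ± 0.13, adjusted P = 0.00033) and mural cells (-0.87 ± 0.13, adjusted P = 0.00065). FBs and ECs did not pass the test (-0.09 ± 0.13, adjusted P = 0.63), nor did FBs and mural cells (-0.13 ± 0.13, adjusted P = 0.51). After thinning, 30.3%, 33.9% and 27.8% of TECs had an *Fgfr2* UMI, against 14.9%, 10.5% and 12.5% of FBs.

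Empty droplets held *Fgfr2* at 66.6, 86.7 and 134 CPM, above the EC, FB and mural levels in Foxn1Lin male and WT male and below them in Foxn1Lin female, so that the part of free RNA in these levels cannot be told apart. In the GENCODE vM21 annotation of GRCm38, *Fgfr2* spans chr7:130162451-133123350 on the minus strand, 2960900 bases, and 36 other genes on that strand overlap this span. The RefSeq stretch before the *Fgfr2* start lies at chr7:130266809-130267058, inside this span. The paper names an mm10 reference with the tdTomato sequence added, whose gene spans were not examined here and may differ. Whether reads in introns were counted is not given in the sources used here, and the part of such reads in the level was not tested. Within TECs, *Fgfr2* was at 222, 298 and 272 CPM in the *Ccl21a* gate, 176, 219 and 202 CPM in the *Prss16*/*Psmb11* gate, and 155, 107 and 95.4 CPM in the *Aire* gate, the last below the 134 CPM of empty droplets of WT male. The first and second of these gates did not pass the test (-0.41 ± 0.15, adjusted P = 0.14).

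*Fgfr3* was highest in ECs, at 12.4, 25.1 and 21.8 CPM. TECs held 1.91, 2.32 and 7.27 CPM, FBs 1.30, 1.62 and 1.51 CPM, and mural cells 2.45, 3.64 and 3.67 CPM. Empty droplets held *Fgfr3* at 5.11, 8.61 and 9.16 CPM, below the EC level and above those of the other classes in every library. In TECs of WT male, 22 cells had 2 or more *Fgfr3* UMIs, and the *Cldn3*/*Plet1* gate held 87 of the 133 UMIs. ECs exceeded TECs by 2.76 ± 0.36 on the log2 scale (adjusted P = 0.00021), and FBs were below ECs (-3.74 ± 0.38, adjusted P = 8.3e-05). The venous and capillary gates did not pass the test (-0.15 ± 0.32, adjusted P = 0.79).

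*Klb*, which pairs with FGF receptors to bind FGF21, was at or below 1.09 CPM in every class and library, from 0 to 5 UMIs each, and did not pass the low-count filter. A count of 0, as in FBs of Foxn1Lin male, allows up to 0.348 CPM. *Kl*, the coreceptor of FGF23, was at 12.4, 11.6 and 4.05 CPM in TECs and at 0 to 0.517 CPM in the other classes. It held 3, 0 and 3 UMIs in FBs, 5, 0 and 0 in ECs and 1, 0 and 0 in mural cells. *Kl* passed the low-count filter through TECs alone, so its calls against them are no support and its fitted folds are not given in the text.

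The *Kl* UMIs lay in few TECs: 59 of 84, 47 of 75 and 71 of 74 were in 1 cell of each library. These cells held 10965, 8529 and 41967 UMIs of *Pth*, the parathyroid hormone gene. TECs with at least 2 UMIs of the parathyroid genes *Gcm2* and *Casr* numbered 16, 10 and 23 and held 90.5%, 100% and 95.9% of the *Kl* UMIs of TECs. With them left out, *Kl* in TECs was at 1.24, 0 and 0.171 CPM and no longer passed the low-count filter.

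Read against the background, FBs and TECs differed in 8 of the 9 members tested, where 56.1% of all genes tested did. ECs and TECs differed in 5 of 9 (57.4% of all genes), mural cells and TECs in 5 of 9 (50.5%), FBs and ECs in 6 of 9 (42.0%), and FBs and mural cells in 5 of 9 (30.0%). The counts against TECs include *Kl*, and without the *Gcm2* and *Casr* cells they were 7, 4 and 4 of 8. The comparisons share class sums and are not independent.

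**Figure D4:**
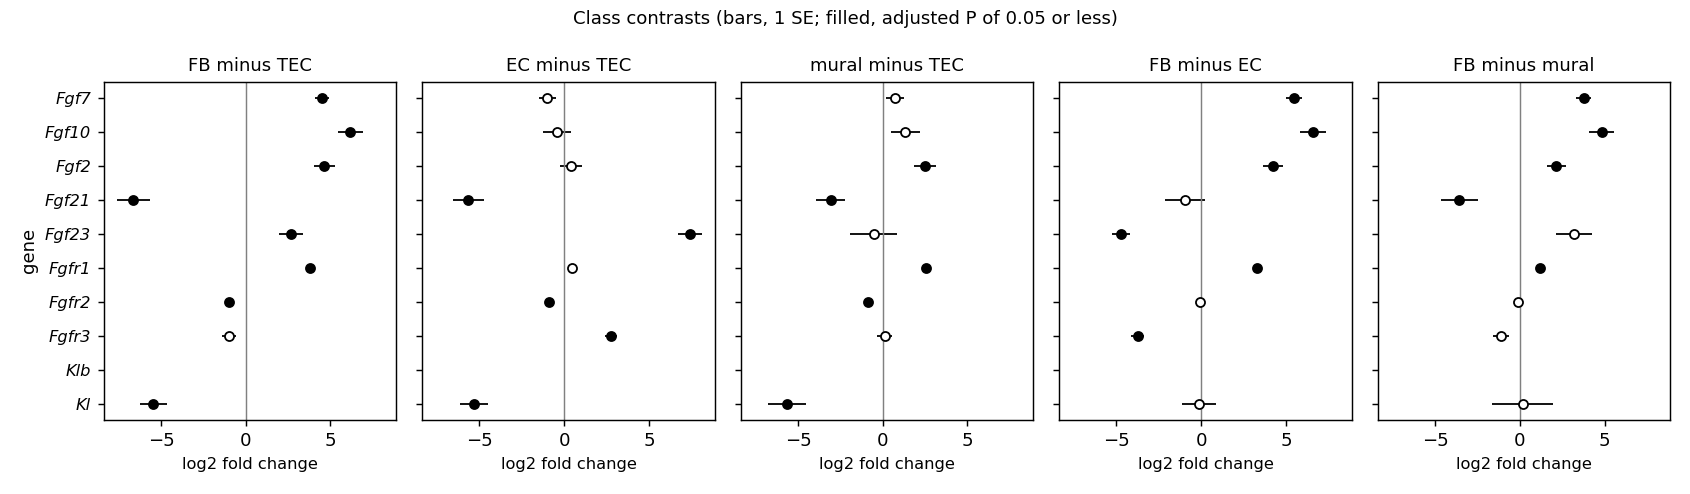
Log2 fold changes of the members between classes (edgeR, 12 sums, library as a block), with bars of 1 SE and filled points at an adjusted P of 0.05 or less. *Klb* was not tested. *Kl* is drawn but rests on few TECs and passed the filter through TECs alone, so its calls against them are no support. The largest differences are *Fgf23* in EC minus TEC (7.42) and *Fgf21* in FB minus TEC (-6.63).

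Pairing ligands with receptors, *Fgf7* and *Fgf10* were highest in FBs and *Fgfr2* in TECs, in every library. *Fgf2* was highest in FBs, as was *Fgfr1*, while *Fgfr3* was highest in ECs. For *Fgf21* and *Fgf23*, highest in TECs and ECs, *Fgfr1* was highest in FBs, *Klb* was near 0 in all classes, and *Kl* rested on TEC gate cells with parathyroid transcripts. Levels of RNA in dissociated cells do not show that ligand and receptor meet.

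Of 37 other genes of the pathway, 26 were tested between FBs and TECs and 16 were called, 12 higher and 4 lower in FBs, where 56.1% of all genes tested were called. The median log2 difference was 0.57 for the list and -0.05 over all genes tested. Of the 10 targets and feedback inhibitors, 9 were called, all higher in FBs. The feedback inhibitor *Spry4* was at 25.3, 63.9 and 64.8 CPM in FBs against 1.33, 1.24 and 2.51 CPM in TECs (5.11 ± 0.30, adjusted P = 4.7e-06), and *Spry1* at 51.4, 175 and 168 CPM against 5.89, 9.75 and 19.4 CPM (3.72 ± 0.40, adjusted P = 6.9e-05). Lower in FBs were *Fgf13*, an intracellular FGF homologous factor (-5.45 ± 0.52, adjusted P = 3.8e-05), the ligand *Fgf9* (-3.97 ± 0.68, adjusted P = 0.00098) and *Fgf14*, a factor related to *Fgf13* (-2.29 ± 0.36, adjusted P = 0.00064). *Fgfbp1*, which releases FGFs from the matrix, was at 0.137, 0 and 0.131 CPM in FBs against 7.81, 3.71 and 6.94 CPM in TECs. It passed the low-count filter through TECs alone. Its calls against TECs are thus no support, and its fitted folds are not given. The counts of called genes against TECs include it.

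Between ECs and TECs, 17 of 26 were called, 9 higher and 8 lower in ECs, where 57.4% of all genes tested were called, with a median of 0.08 for the list and -0.07 over all genes. Of the 10 targets and feedback inhibitors, 9 were called, 6 higher and 3 lower in ECs. *Spry4* (4.75 ± 0.30, adjusted P = 5e-06) and *Spry1* (3.18 ± 0.39, adjusted P = 0.00015) were higher in ECs, and *Fgf13* (-4.02 ± 0.49, adjusted P = 0.00013) and *Fgf14* (-3.86 ± 0.40, adjusted P = 5.2e-05) were lower. *Fgfbp1* was at 0.207, 0 and 0.267 CPM in ECs, and its call is no support for the reason given above.

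Between libraries, levels were compared by a fold of 2 among genes with at least 20 UMIs, with no test. Foxn1Lin female and Foxn1Lin male differed by this fold in 7 of 8 members in ECs, against 19.1% of all genes. In FBs 2 of 7 did (19.1% of all genes), in TECs 2 of 8 (17.9%) and in mural cells 1 of 4 (14.5%). In ECs, *Fgf23* and *Fgfr3* were lower and *Fgf7*, *Fgf10*, *Fgf2*, *Fgf21* and *Fgfr1* higher in Foxn1Lin female. Of these, *Fgf23* and *Fgfr3* in ECs lay above their levels in empty droplets in both libraries, and the others below. The 8 FB markers summed to 1070, 72.9 and 140 CPM in ECs, and 26.5%, 12.9% and 9.46% of all UMIs lay outside called barcodes. The part of FB transcripts and free RNA in these levels was not tested. Of the 8 markers, 7, 1 and 3 were at 10 CPM or more in ECs and none was at 0. The 4 venous markers summed to 699, 3739 and 3467 CPM in ECs.

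In FBs, *Fgf2* was 2.51 times higher in Foxn1Lin female than in Foxn1Lin male (95% interval 2.19 to 2.87). Within gates the ratio was 0.815 (0.6691 to 1.0006) in the *Pi16*/*Dpp4* gate and 1.09 (0.773 to 1.51) in the *Ptn*/*Postn* gate. The *Pi16*/*Dpp4* gate held 39.3%, 7.64% and 8.58% of FBs. Foxn1Lin male and WT male differed by this fold in 4 of 9 members in TECs (15.2% of all genes), 0 of 4 in ECs (10.4%), 1 of 7 in FBs (11.0%) and 2 of 5 in mural cells (11.1%). In TECs these were *Fgf10* and *Kl*, higher in Foxn1Lin male, and *Fgf2* and *Fgfr3*, lower. The *Fgf10*, *Fgf2* and *Fgfr3* levels of TECs were below those of empty droplets in both libraries. Without the TECs that held *Gcm2* and *Casr*, *Kl* was left with 0 UMIs in Foxn1Lin male and 3 in WT male, too few to compare. In TECs the 4 parathyroid markers summed to 2766, 5158 and 2738 CPM and the 5 cortical TEC markers to 4196, 391 and 1926 CPM, and their part in these ratios was not tested.

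The genes most like each member over the 12 sums, among 13162 genes with at least 5 CPM in at least 3 sums, were *Itgbl1* for *Fgf7* (r = 0.98), *Entpd2* for *Fgf10* (r = 0.98), *Col5a1* for *Fgf2* (r = 0.98), *Gpr1* for *Fgf23* (r = 0.94), *Fstl1* for *Fgfr1* (r = 0.99), *Krt7* for *Fgfr2* (r = 0.99) and *Mrtfb* for *Fgfr3* (r = 0.96). *Klb* and *Kl* had too few sums at that level.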

How the data were processed

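Single-cell 3′ RNA was measured in 3 libraries of CD45- thymic cells. The authors deposited raw UMI counts, not normalized, as 1 matrix of called and 1 of all barcodes per library. File headers name Cell Ranger 7.0.1 for the called barcodes, and the submitters' processing notes name the mm10 build. At called barcodes 0 entries differed between the matrices.

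Of 8616, 3583 and 5478 called barcodes, 138, 149 and 222 had at most 1000 genes and at least 20% mitochondrial counts, and these were taken out. No doublet caller was run: barcodes in more than 1 class were dropped, and the top 3.9% by UMIs were left out as an alternative. Called barcodes held 53366016, 33386621 and 61258534 UMIs. Uncalled barcodes around the mode of the UMI distribution (124 to 493, 22 to 87 and 26 to 103 UMIs) served as empty droplets. Shares have Clopper-Pearson and levels Poisson intervals, and a count of 0 allows 3 counts. Both cover counting error only.

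Counts were summed per library and class, and classes were compared with the quasi-likelihood test of edgeR 4.0.16 (TMM scaling, filterByExpr, library as a block, two-sided, Benjamini-Hochberg adjustment over all genes tested, threshold 0.05) in R 4.3.3. One fit over 12 sums gave the 5 class comparisons, and fits over 6 sums gave those between gates, with barcodes in both gates left out. The study's methods tested single cells. Cells of a library are not replicates, so the 3 libraries served as such, and they differ in genotype and sex. The SE is the log2 fold change divided by the square root of F. The fit of FB minus TEC was checked on simulated counts for 16017 genes, where it called 70.0% of the planted changes of 2-fold and 100% of those of 4-fold, and 5.56% of its calls were of unchanged genes. DESeq2 1.42.0, relative log expression scaling, no low-count filter, no block, each library left out, no barcode filter, stricter gates, thinning and barcodes with *Ptprc*, *Cd3e* or *Lck* left out were alternatives. Leaving out barcodes with *Gcm2* and *Casr*, leaving out each member's highest cell, and counting barcodes in both EC gates as venous were chosen after seeing the data.

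Named were the 10 members, up to 5 other pathway genes with the largest called change in FB minus TEC and in EC minus TEC, and the genes of most similar profile. The members, gates and lists were chosen with earlier results of these data known. Promoter stretches were matched by symbol to RefSeq, and gene positions are those of GENCODE vM21.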

Additional observations from a re-analysis of the deposited data

Results flagged for a closer look

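*Fgf10* changed its order between the FB gates. The level in the *Pi16*/*Dpp4* gate was 2.02 times that of the *Ptn*/*Postn* gate in Foxn1Lin female and 2.41 times in Foxn1Lin male, but 0.688 times in WT male. Every 95% counting interval excluded 1. The difference between libraries was not tested, since each group had 1 library.

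*Fgf2* in ECs was 2.30 times its level in TECs in Foxn1Lin female and 0.222 times in WT male, again with intervals that excluded 1 and with no test of the difference. In Foxn1Lin male it was 0.566 times, with an interval that included 1 (0.118 to 2.39). The EC and TEC levels were below that of empty droplets in each library.

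In barcodes outside the 4 classes, 13 cells of Foxn1Lin female with at least 2 UMIs of *Gcm2* and *Casr* held *Kl* at 358 CPM and *Fgfr2* at 421 CPM, above every class. The values rest on 17 *Kl* UMIs in 5 cells and 20 *Fgfr2* UMIs in 6 cells. The same gate held 1 cell in Foxn1Lin male, with 0 UMIs of either gene, and 4 cells in WT male, with 0 UMIs of *Kl* and 2 of *Fgfr2*. Barcodes dropped for being in more than 1 class held *Fgf21* at 107 CPM in WT male, above the 70.0 CPM of TECs. In both Foxn1Lin libraries the counting interval of such barcodes did not lie wholly above those of the classes and empty droplets.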

How the results depend on the processing

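The direction of every called member held under all alternatives in which it was tested, and 452 of 479 recomputed log2 fold changes stayed past the threshold. The number of members called stayed within 1.5 times the reported count in 97 of 113 recomputed counts. Leaving out 1 library gave 3 to 6 members for mural minus TEC (5 with all libraries), 3 to 5 for FB minus mural (5), 1 to 2 for venous minus capillary ECs (2) and 0 to 1 for the TEC gates (0). Without Foxn1Lin male or WT male, mural minus TEC lost *Fgf2* and *Fgf21*. With 2 libraries left the test has fewer degrees of freedom.

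Between the EC gates, 1 member, *Fgf23*, was called with no low-count filter, with DESeq2, with no library block, under stricter gates and with barcodes in both gates counted as venous. After thinning, 1 member was called, *Fgfr2*, and *Fgf23* did not pass the low-count filter and was not tested. Thinning left 2 members between the FB gates, *Fgf2* and *Fgfr1*. Between the TEC gates, 1 member was called with no low-count filter, with DESeq2 and with each member's highest cell left out. The cause was not tested. Of 840 recomputed levels, 127 left the counting interval, 58 of them under thinning, and 69 of 120 shares did so when cells were not thinned. Relative log expression scaling moved the median log2 difference of all genes in FB minus TEC from -0.05 to -0.13.

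No paired analysis was possible because each group had 1 library, so that no replicate numbers pair the groups. This concerns the library groups only: class and gate comparisons were made within libraries, with library as a block. Depth limits *Klb*, and *Kl* outside TECs, with at most 5 UMIs per class and library. Outside FBs, *Fgf7*, *Fgf10* and *Fgf2* lay below their levels in empty droplets in every class and library.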

Other observations

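*Fgf1*, a ligand of all FGF receptors, was chosen after its values were seen. It was highest in mural cells, at 339, 243 and 280 CPM, against 56.0, 37.9 and 63.0 CPM in TECs (2.79 ± 0.36 on the log2 scale, adjusted P = 0.00028). FBs held 53.6, 53.5 and 76.4 CPM and ECs 20.4, 3.94 and 8.41 CPM.

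Between the FB gates, 11 of 23 other pathway genes tested were called, 1 higher and 10 lower in the *Pi16*/*Dpp4* gate, where 23.5% of all genes tested were called, with a median log2 difference of -0.58 for the list and -0.04 over all genes tested. Of 10 targets and feedback inhibitors tested, 6 were called, all lower. Among them were *Spry1* (-2.44 ± 0.25, adjusted P = 2.8e-05) and *Spry4* (-1.998 ± 0.177, adjusted P = 9.9e-06). Of 6 ligands of the list tested, 4 were called, 1 higher and 3 lower. The called members went both ways, with *Fgf2*, *Fgf7* and *Fgfr1* higher in this gate and *Fgfr2* lower. A link between these differences was not tested.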
